A study of Mus musculus with 12 samples.

Results

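The genes described here encode the proteins of the cornified cell envelope, the cross-linked shell that forms beneath the membrane of a keratinocyte as it dies and flattens at an epithelial surface, together with the enzymes that build it. Members were the rows of the count table whose symbol is a small proline-rich protein (SPRR) or late cornified envelope (LCE) gene, or is 1 of loricrin (Lor), involucrin (Ivl), cornifelin (Cnfn), the S100-fused genes Flg, Flg2, Crnn, Rptn, Hrnr, Tchh and Tchhl1, the transglutaminases Tgm1, Tgm3 and Tgm5, and the protease gene Casp14. The table of 21965 genes held 50 such members, of which 15 were SPRR genes, 21 were LCE genes, 7 were S100-fused genes, 3 were loricrin, involucrin and cornifelin, and 4 were the transglutaminases and Casp14. Of the 50 members, 47 had enough counts to be tested, and Lce6a, Sprr2a2 and Sprr4 did not.

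The samples were 12 libraries of messenger RNA from mouse gingiva, the keratinized mucosa around the teeth, with 3 libraries from each of 4 groups. C57BL/6 wildtype (WT) mice and Cybb-/- mice (CybbKO) under 12 weeks of age were either left naive or carried a ligature around a maxillary molar for 8 days. The ligature gathers bacteria at the gum line and inflames the tissue, which is the ligature-induced periodontitis model. Cybb encodes the Nox2 subunit of the oxidase with which phagocytes make reactive oxygen species, and the deletion is carried by every cell of the animal. Cybb itself was counted at 5.06 ± 0.76 CPM (counts scaled to library size and TMM factor, mean ± SD, n = 3) in WT naive and 12.1 ± 3.43 in WT ligated libraries, against 47.9 ± 7.56 and 57.0 ± 6.31 in the naive and ligated libraries labelled CybbKO. The transcript of the targeted gene was therefore higher, not lower, in the libraries labelled CybbKO. Counts over a whole gene do not show whether the transcript makes a protein, so this does not check the labels. All 10 neutrophil markers listed below were higher in the ligated libraries labelled CybbKO than in WT ligated ones on the log2 scale, with a median of 1.31, and none was called. Every genotype direction below rests on the labels: CybbKO libraries are those so labelled. Libraries held between 27958819 and 42613423 counts.

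Cornification proceeds from below upwards. Keratinocytes leaving the basal layer first switch keratins, then make involucrin and the SPRR proteins, and then loricrin, filaggrin and the LCE proteins, which transglutaminases join to one another through glutamine and lysine side chains. Caspase-14 acts late and takes part in breaking down filaggrin. Most of these genes lie side by side in the epidermal differentiation complex, and SPRR genes, those of the SPRR2 group above all, are known to be induced in wounded or inflamed epithelia of several organs. Of the 50 members, 45 lay on chromosome 3 (GRCm38, GENCODE M21) between 92080271 and 93471980, a span of 1.39 Mb. The other members were Tgm3 and Tgm5 on chromosome 2, Cnfn on chromosome 7, Casp14 on chromosome 10 and Tgm1 on chromosome 14.

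The results turn on the 11 SPRR2 genes, which lie within chr3:92215799-92433925. The annotated spans of Sprr2a1 and Sprr2a2 overlap there. SPRR2 proteins are short, proline-rich cross-bridging proteins of the envelope. The 200 bases before the start of 7 of them are shown because these members shared an octamer found at no other member with a sequence. The sequences are from RefSeq (build GRCm38.p6), on the strand of the gene, 5′ to 3′, each ending at the base before the annotated start. The octamer (ATGCAAAT, here on the other strand as ATTTGCAT) and the AP-1 motif (TGANTCA, the same letters on both strands) are in capitals. Sprr1b and Sprr3, neighbours of the group from the other SPRR families, are shown for contrast.
Sprr2b (chr3:92316505-92316704, plus strand): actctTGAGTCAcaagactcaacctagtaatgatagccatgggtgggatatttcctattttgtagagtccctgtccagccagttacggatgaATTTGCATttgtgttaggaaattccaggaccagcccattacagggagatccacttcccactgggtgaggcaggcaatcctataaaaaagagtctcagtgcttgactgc
Sprr2d (chr3:92338940-92339139, plus strand): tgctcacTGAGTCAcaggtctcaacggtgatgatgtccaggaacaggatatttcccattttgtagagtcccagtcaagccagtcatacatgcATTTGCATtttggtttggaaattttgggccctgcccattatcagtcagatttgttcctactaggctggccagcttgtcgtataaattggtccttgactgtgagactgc
Sprr2e (chr3:92351943-92352142, plus strand): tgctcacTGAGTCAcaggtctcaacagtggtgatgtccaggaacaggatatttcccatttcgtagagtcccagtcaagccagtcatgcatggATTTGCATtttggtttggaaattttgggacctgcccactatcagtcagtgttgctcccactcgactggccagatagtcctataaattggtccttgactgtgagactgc
Sprr2f (chr3:92364987-92365186, plus strand): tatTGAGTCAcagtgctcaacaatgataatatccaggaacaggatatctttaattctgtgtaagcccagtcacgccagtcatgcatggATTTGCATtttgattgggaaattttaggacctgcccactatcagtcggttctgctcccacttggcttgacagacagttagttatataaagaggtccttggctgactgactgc
Sprr2h (chr3:92385485-92385684, plus strand): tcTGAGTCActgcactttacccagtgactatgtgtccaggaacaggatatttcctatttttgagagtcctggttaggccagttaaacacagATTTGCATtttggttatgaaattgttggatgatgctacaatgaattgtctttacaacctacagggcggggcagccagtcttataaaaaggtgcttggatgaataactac
Sprr2i (chr3:92407791-92407990, plus strand): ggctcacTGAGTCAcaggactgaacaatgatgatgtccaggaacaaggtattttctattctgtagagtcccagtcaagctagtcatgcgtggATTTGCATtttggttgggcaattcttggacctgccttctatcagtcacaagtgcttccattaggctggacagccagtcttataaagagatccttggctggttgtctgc
Sprr2k (chr3:92432382-92432581, plus strand): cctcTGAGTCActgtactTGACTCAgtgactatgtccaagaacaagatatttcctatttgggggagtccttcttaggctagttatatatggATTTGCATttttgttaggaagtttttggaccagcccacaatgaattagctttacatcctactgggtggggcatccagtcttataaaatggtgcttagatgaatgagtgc
Sprr1b (chr3:92438780-92438979, minus strand): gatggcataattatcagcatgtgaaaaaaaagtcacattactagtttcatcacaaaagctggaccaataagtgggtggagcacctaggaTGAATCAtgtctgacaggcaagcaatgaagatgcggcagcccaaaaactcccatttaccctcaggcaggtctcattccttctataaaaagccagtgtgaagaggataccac
Sprr3 (chr3:92458721-92458920, minus strand): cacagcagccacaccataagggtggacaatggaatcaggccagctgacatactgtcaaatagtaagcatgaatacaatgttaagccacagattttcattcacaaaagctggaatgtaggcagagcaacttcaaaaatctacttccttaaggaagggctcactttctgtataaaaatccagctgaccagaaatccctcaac

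RefSeq windows of 300 bases, 250 before and 50 after the start, were found for 48 of the 50 members, with none for Lce1f and Sprr2j-ps. The octamer was present on either strand in 1.74% of all 32851 windows of this kind and in 7 of the 48, which were Sprr2b, Sprr2d, Sprr2e, Sprr2f, Sprr2h, Sprr2i and Sprr2k. In those 7 it stood between 108 and 112 bases before the start. The AP-1 letters were in 7.81% of all windows and in 16 of the 48: the same 7 SPRR2 members, Sprr1a, Sprr1b, Lor, Ivl, Crnn, Rptn, Flg, Flg2 and Tchhl1. In the 7 SPRR2 windows the motif began between 193 and 198 bases before the start, with a further copy at 182 in Sprr2k, and it did not overlap the octamer. The windows of Sprr2a1, Sprr2a2 and Sprr2a3 held no octamer, which says only that these letters are absent from the 300 bases around their RefSeq starts. The SPRR2 genes arose by duplication and their promoters are alike in general, so these matches are not independent of one another.

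In naive and ligated gingiva alike the members ranged over more than 4 orders of magnitude in level. Set per kilobase of exon, the highest mean level over the 12 libraries was that of Sprr3, an SPRR protein of the lining of mouth and oesophagus, at 2616 CPM per kb. It was followed by Rptn (repetin) at 2402, Crnn (cornulin) at 1120, Lor at 764 and Tgm3, the transglutaminase 3 that cross-links envelope precursors, at 756. Sprr1a at 626, Lce3b at 625, Lce3f at 577 and Lce3a at 529 came next. Sprr2d, at 401, was the SPRR2 member of highest level and ranked 12 among the 50, from rank 13 in both naive groups to rank 4 in CybbKO ligated libraries, and 8 when set per kilobase of coding sequence. Flg, the filaggrin precursor that defines the granular layer of skin, stood at 4.84 and Ivl at 1.30, far below Lor. Per kilobase of coding sequence Flg stood at 13.6, Ivl at 1.78 and Lor at 933. The 18829 exon bases of Flg held only 9539 distinct 75-base windows, and how reads from repeats were counted is not given. In all, 23 members exceeded 100 CPM per kb, and 7 were under 1 CPM per kb, namely Lce1m, Flg2, Sprr4, Tchhl1, Sprr2a1, Lce6a and Sprr2a2. Marker genes of gingival keratinocytes were together abundant in every library, the sum of Krt5, Krt14, Krt4, Krt13, Krt1, Krt10, Krt76 and Trp63 lying between 59480 and 123600 CPM.

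**Figure D1:**
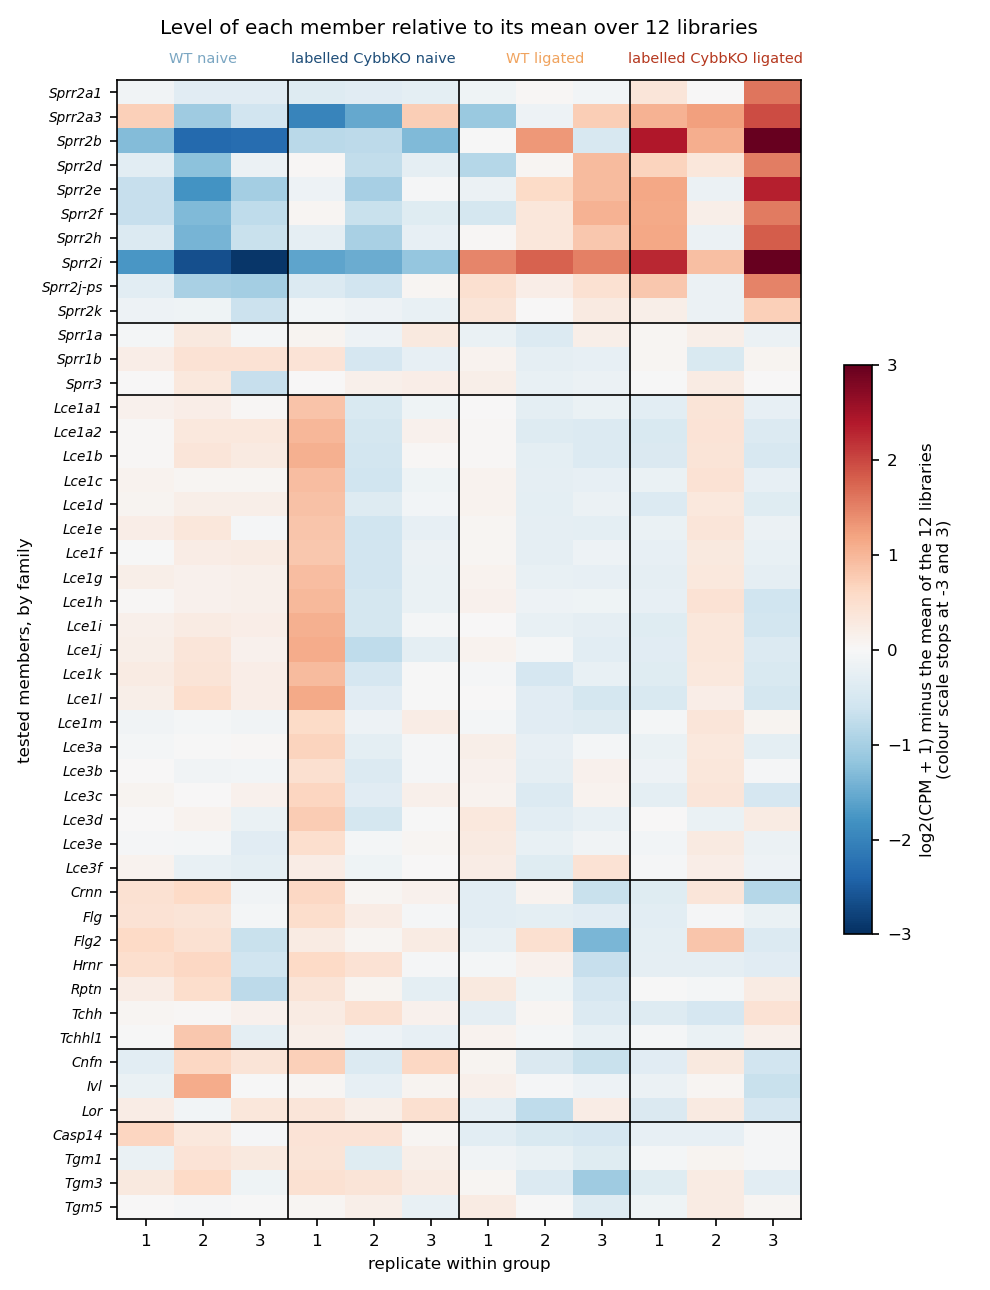
Level of each of the 47 tested members in each of the 12 libraries, as log2(CPM + 1) minus the mean of that member over the 12 libraries. Rows are grouped by family and columns by group. Most SPRR2 rows are bluer in naive and redder in ligated libraries, with exceptions such as Sprr2a3 and Sprr2d in WT ligated replicate 1, while the 14 LCE1 rows and most LCE3 rows are darkest in CybbKO naive replicate 1.

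With the ligature, SPRR2 genes rose and most of the other envelope genes did not pass the test. Averaged over both genotypes, 11 of the 47 tested members differed between ligated and naive libraries (edgeR's quasi-likelihood test, adjusted p under 0.05 over all 15046 tested genes), 9 of them higher and 2 lower, where 24.4% of all tested genes were called, 14.7% higher and 9.66% lower. All 9 that rose were SPRR2 genes, of 10 SPRR2 members tested. Both the 9 and the 10 include Sprr2a1, which passed the filter on low counts through its ligated libraries alone. The 2 that fell were Casp14 and Flg. Of the 47, 13 had a positive log2 fold change, against 46.1% of all tested genes, and the median of the 47 was -0.23 against -0.03 for all tested genes. DESeq2 called 16 members, 9 higher and 7 lower (background 30%, with 16.1% higher and 13.9% lower), the 7 being Casp14, Flg, Tgm3, Crnn, Hrnr, Lor and Lce1l. Libraries came from whole gingival tissue, so fewer cells of a type and less RNA per cell cannot be told apart.

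The direction of the lower members depends on what is held constant. When the libraries were scaled so that 12 epithelial genes (Krt5, Krt14, Cdh1 and others) had the same mean, the median of all genes moved from -0.03 to 0.35 and the split of the 47 members turned from 13 positive and 34 negative to 33 positive and 14 negative. The median of the 47 members moved from -0.23 to 0.18 and so stayed below that of all genes. Under that scaling all 9 SPRR2 calls, that of Sprr2a1 included, were present and neither Casp14 nor Flg was called.

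Sprr2i gave the clearest separation. It was counted at 4.96, 2.18 and 1.64 CPM in the 3 WT naive libraries and at 5.66, 6.08 and 7.87 in the naive libraries labelled CybbKO. It reached 53.98, 66.2 and 55.6 CPM in WT ligated and 93.9, 36.05 and 243 in CybbKO ligated libraries. Every ligated library lay far above every naive one, and the 3 WT ligated libraries differed little from each other. The log2 fold change was 4.28 ± 0.44 (SE), a ratio of 19.4 (adjusted p = 0.000189), and the exact permutation of ligature labels within genotype gave p = 0.005, the smallest it can give. The change was 4.31 in WT (adjusted p = 0.00836) and 4.25 in CybbKO libraries (adjusted p = 0.00234). Leaving out WT naive replicate 1 gave 4.93 in WT, and leaving out CybbKO ligated replicate 3 gave 3.31 in CybbKO, both still called.

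Sprr2b was nearly silent without the ligature. Its levels were 1.28, 0.127 and 0.146 CPM in WT naive and 2.19, 2.27 and 1.25 in CybbKO naive libraries, and 4.55, 12.9 and 3.06 in WT ligated and 28.9, 11.02 and 128 in CybbKO ligated libraries. Again no ligated library reached down to a naive one, but the third CybbKO ligated library held more than 4 times the level of any other. The averaged log2 fold change was 4.27 ± 0.71 (SE, adjusted p = 0.00162). It was 3.68 in WT, where the adjusted p was 0.0769, and 4.87 in CybbKO libraries (adjusted p = 0.00871). The third CybbKO ligated library carried part of this, as the fit without it gave 3.38 in CybbKO and 3.54 averaged, while the fit without WT naive replicate 1 gave 5.25 averaged, all still called.

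Sprr2h was already measurable in naive gingiva, at 16.4, 7.78 and 13.5 CPM in WT and 18.2, 10.8 and 18.6 in CybbKO libraries. Ligated libraries held 22.6, 28.2 and 39.3 CPM in WT and 50.96, 19.4 and 80.97 in CybbKO. The groups did not overlap, though the lowest ligated value (19.4) lay close to the highest naive one (18.6). Sprr2h rose by a log2 fold change of 1.46 ± 0.32 (SE, adjusted p = 0.00691). Sprr2b, Sprr2h and Sprr2i were the 3 members whose 6 ligated libraries all exceeded the 6 naive ones, a pattern shown by 6.73% of all tested genes.

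Sprr2f stood at 25.2, 16.1 and 24.02 CPM in WT naive and 43.4, 25.96 and 32.05 in CybbKO naive libraries. With the ligature it measured 28.7, 52.7 and 86.9 CPM in WT and 92.1, 46.7 and 125 in CybbKO libraries. Within each genotype all ligated libraries exceeded the naive ones, and across genotypes WT ligated replicate 1 fell inside the CybbKO naive range. The log2 fold change was 1.37 ± 0.29 (SE, adjusted p = 0.00614), with 1.37 in WT and 1.38 in CybbKO libraries.

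Sprr2e was counted at 5.63, 2.06 and 4.26 CPM in WT naive and 8.54, 4.38 and 9.46 in CybbKO naive libraries. Ligated values were 8.39, 14.99 and 19.7 CPM in WT and 22.9, 8.40 and 52.3 in CybbKO libraries. Both CybbKO groups overlapped through the second ligated library, whereas the WT groups were apart. Its log2 fold change was 1.88 ± 0.42 (SE, adjusted p = 0.00815).

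Sprr2d, the SPRR2 member of highest level, gave 191, 100.2 and 209.7 CPM in WT naive, 245, 142 and 197 in CybbKO naive, 130.4, 247 and 457 in WT ligated and 377, 299 and 685 in CybbKO ligated libraries. WT ligated replicate 1 lay among the naive libraries, and the CybbKO groups did not overlap. Sprr2d rose by 0.98 ± 0.31 on the log2 scale (SE, adjusted p = 0.0408), and the call was lost when any of 9 libraries was left out. Leaving out WT ligated replicate 3 gave 0.70, and leaving out replicate 1 of the same group gave 1.18.

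Sprr2j-ps, annotated as a pseudogene, was counted at 7.95, 4.68 and 4.56 CPM in WT naive and 7.50, 6.49 and 10.6 in CybbKO naive libraries, against 14.8, 11.8 and 14.3 in WT ligated and 18.5, 8.96 and 30.4 in CybbKO ligated libraries. Only CybbKO ligated replicate 2 reached into the naive range. Its log2 fold change was 1.24 ± 0.27 (SE, adjusted p = 0.00691). No 75-base stretch of its annotated transcript occurred in another transcript, but 2.33% of its 36-base stretches did. Both lengths are given because the run was paired-end on a 75-cycle kit, and the study's methods also call the reads single-end, so the length of a read is not settled. Sprr2b, Sprr2e and Sprr2i shared 25.7%, 17.3% and 19.4% of their 36-base stretches with other SPRR2 genes, and 3.94%, 5.41% and 6.08% of their 75-base stretches. Sprr2d, Sprr2f, Sprr2h and Sprr2k shared at most 6.97% (Sprr2d) at 36 bases.

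Sprr2k moved least among the called members. It measured 17.3, 17.9 and 12.1 CPM in WT naive, 18.4, 17.4 and 16.6 in CybbKO naive, 25.9, 19.5 and 23.7 in WT ligated and 22.2, 17.3 and 32.9 in CybbKO ligated libraries. The highest and lowest ligated values both came from CybbKO libraries, and the lower of them lay inside the naive range. The log2 fold change was 0.51 ± 0.16 (SE, adjusted p = 0.0379), and this call was lost on leaving out any of 8 libraries.

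Sprr2a1 and Sprr2a2 rested on few reads. Sprr2a1 gave 0, 1 and 2 counts in the CybbKO naive libraries and 26, 12 and 131 in the CybbKO ligated libraries, and 7, 1 and 1 against 8, 13 and 9 in WT naive and ligated libraries. The ratio of summed counts, scaled for depth, was 48.8 in CybbKO (exact 95% interval 16.4 to 239, counting error only) and 2.62 in WT (1.21 to 6.27). In the fit the averaged log2 fold change was 3.37 ± 0.74 (SE, adjusted p = 0.00751), and 5.37 in CybbKO libraries. CybbKO ligated replicate 3 held 131 of the 169 CybbKO ligated counts. Without it these values were 2.67 and 3.95, without WT naive replicate 1 the averaged one was 4.09, and without CybbKO naive replicate 3 the CybbKO one was 6.25, all still called. With so few naive reads Sprr2a1 passed the filter on low counts through its ligated libraries alone, so its calls are a description. The counts of SPRR2 members that were tested, positive or called include Sprr2a1, which lends them no support. Of the 75-base windows of the Sprr2a1 transcript 94.3% also occurred in Sprr2a2, Sprr2a3 or Sprr2b, so the assignment of reads among these paralogs is uncertain. The annotated spans of Sprr2a1 (chr3:92215799-92221911) and Sprr2a2 (chr3:92215920-92256724) also overlap on the plus strand. How reads in the overlap were counted is not given, so the low counts of both genes are uncertain. Sprr2a2, of which 94.7% is shared, had 7, 2 and 24 counts in the CybbKO ligated libraries and none in the CybbKO naive ones. That was at least 7.32-fold higher by the exact 95% bound on counting error, and 9.52-fold against a floor of 3 counts over the naive group. Sprr2a3, the remaining member, was counted at 30.1, 8.13 and 11.8 CPM in WT naive, 3.81, 5.52 and 30.6 in CybbKO naive, 7.76, 16.1 and 30.7 in WT ligated and 38.2, 43.9 and 72.1 in CybbKO ligated libraries. Its log2 fold change of 1.04 ± 0.53 (SE) did not pass (adjusted p = 0.178). Without CybbKO naive replicate 3 it was 1.79 and passed (adjusted p = 0.0166). Of the windows of the Sprr2a3 transcript, 47.5% at 75 bases and 69.7% at 36 bases also occurred in other genes.

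**Figure D2:**
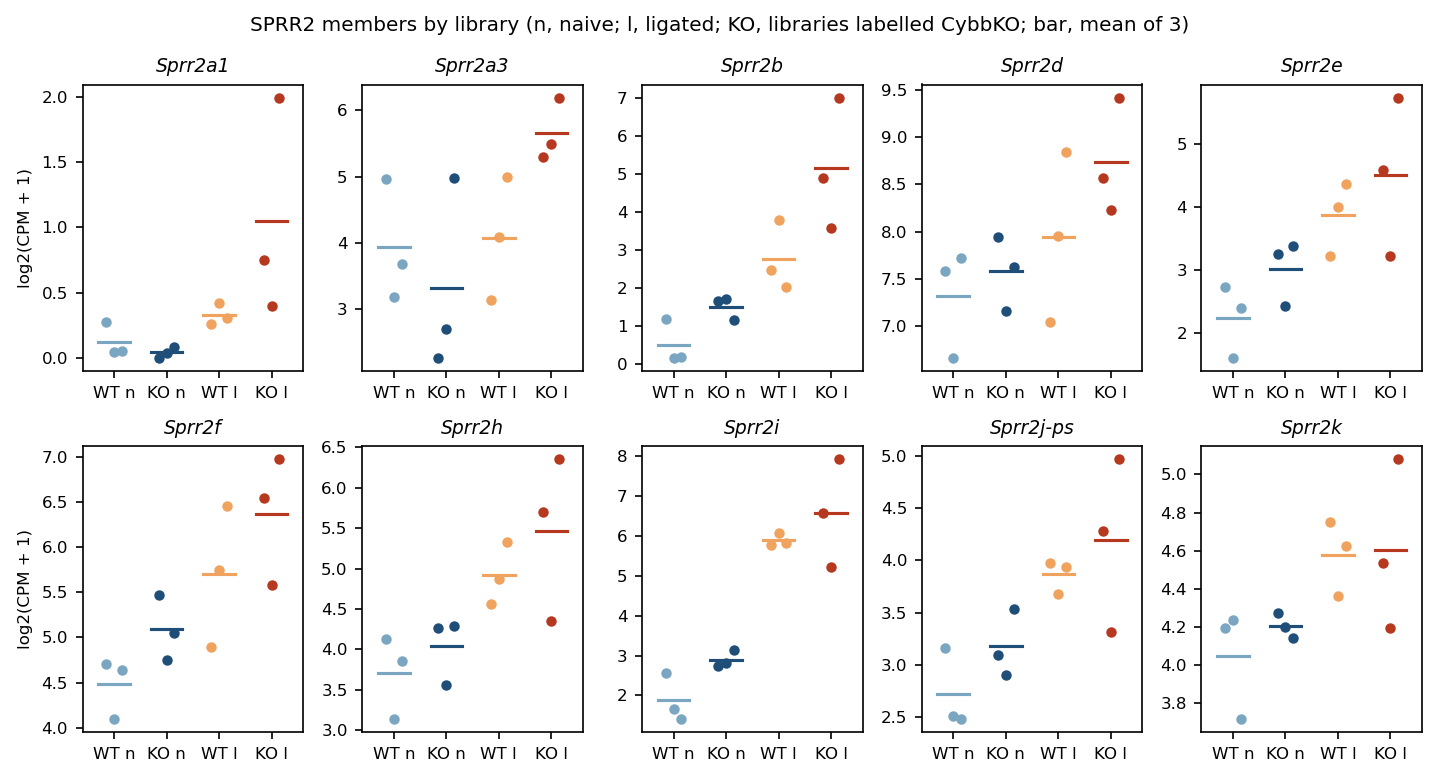
Level of the 10 tested SPRR2 members in each library, as log2(CPM + 1), 1 panel a gene with its own axis that need not start at 0. Points are libraries and the bar is the mean of 3. Sprr2i separates all ligated from all naive libraries by the widest gap, and in every panel the highest point is a CybbKO ligated library.

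The 3 other SPRR genes tested were not called. Sprr1a, Sprr1b and Sprr3, which encode the classic cross-bridging envelope proteins and lie within 0.42 Mb of the first member, gave log2 fold changes of -0.13 (adjusted p = 0.50), -0.26 (adjusted p = 0.261) and -0.03 (adjusted p = 0.928). Sprr3 was counted at 3193, 3895 and 1959 CPM in WT naive and 3195, 3473 and 3645 in CybbKO naive libraries, against 3532, 2702 and 2769 in WT ligated and 3115, 3727 and 3154 in CybbKO ligated libraries. Because Sprr3 is so abundant, the SPRR2 members made up only 3.28 to 9.71% of all SPRR CPM in naive libraries. That share was 6.74, 12.8 and 17.5% in WT ligated and 16.5, 10.1 and 28% in CybbKO ligated libraries, so that only WT ligated replicate 1 stayed within the naive range. With epithelial scaling the 3 other SPRR genes were all positive, between 0.19 and 0.33, and still not called. The median of all tested genes was 0.35 with that scaling.

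The 14 LCE1 genes, which encode envelope proteins of the late phase of cornification, all had negative log2 fold changes, from -0.62 for Lce1l to -0.20 for Lce1c with a median of -0.32, and none passed the test. With epithelial scaling 8 of the 14 were positive and the median was 0.09, where that of all tested genes was 0.35. Lce1l was counted at 55.4, 68.7 and 56.02 CPM in WT naive, 108, 38.3 and 48.04 in CybbKO naive, 48.9, 37.99 and 33.3 in WT ligated and 35.01, 55.4 and 33.2 in CybbKO ligated libraries. The WT groups were apart, while the CybbKO groups overlapped (edgeR adjusted p = 0.0808, DESeq2 adjusted p = 0.0349).

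The 6 LCE3 genes, in humans a group tied to barrier repair and psoriasis, stood close to 0, with a median of -0.05 that was 0.05 with library size scaling and 0.36 with epithelial scaling. Lce3b, the LCE member of highest mean level per kilobase of exon, measured 349.5, 322 and 329 CPM in WT naive, 487, 260.2 and 337 in CybbKO naive, 377, 287 and 379 in WT ligated and 312, 439 and 336 in CybbKO ligated libraries. Lce3f measured 373, 298 and 284 CPM in WT naive, 403, 319 and 351 in CybbKO naive, 409, 271 and 469 in WT ligated and 340.1, 397 and 311 in CybbKO ligated libraries. All groups overlapped for both genes, whose log2 fold changes were 0.03 (adjusted p = 0.906) and 0.12 (adjusted p = 0.58). Between 6.15% (Lce3b) and 45.6% (Lce3f) of the 75-base windows of LCE3 transcripts were shared within the family, and between 21.6% (Lce3b) and 57.7% (Lce3d) of the 36-base windows, so single LCE3 values are less certain than their sum.

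Single libraries stood out in the LCE genes. CybbKO naive replicate 1 had the highest level of the 12 libraries for all 14 LCE1 genes and for 5 of the 6 LCE3 genes. Summed LCE1 levels were 1153, 1269 and 1193 CPM in WT naive libraries but 2065, 741 and 997 in CybbKO naive libraries. They were 1109, 878 and 884 CPM in WT ligated and 843, 1368 and 832 in CybbKO ligated libraries, of which the second was highest of the 6 ligated libraries for all 14 genes. Without CybbKO naive replicate 1 the median LCE1 change with the ligature in CybbKO libraries turned from -0.33 to 0.26. As a description over 12 libraries, deviations from the group means of LCE1 genes ran together (median Pearson r of 91 gene pairs 0.97, lowest 0.87) and with those of LCE3 genes (median 0.84), while those of LCE1 and SPRR2 genes had a median r of -0.28. Libraries share depth, dissection and tissue composition across genes, and LCE1 paralogs shared up to 13.5% of 75-base windows (Lce1e) and up to 49.0% of 36-base windows (Lce1i).

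**Figure D3:**
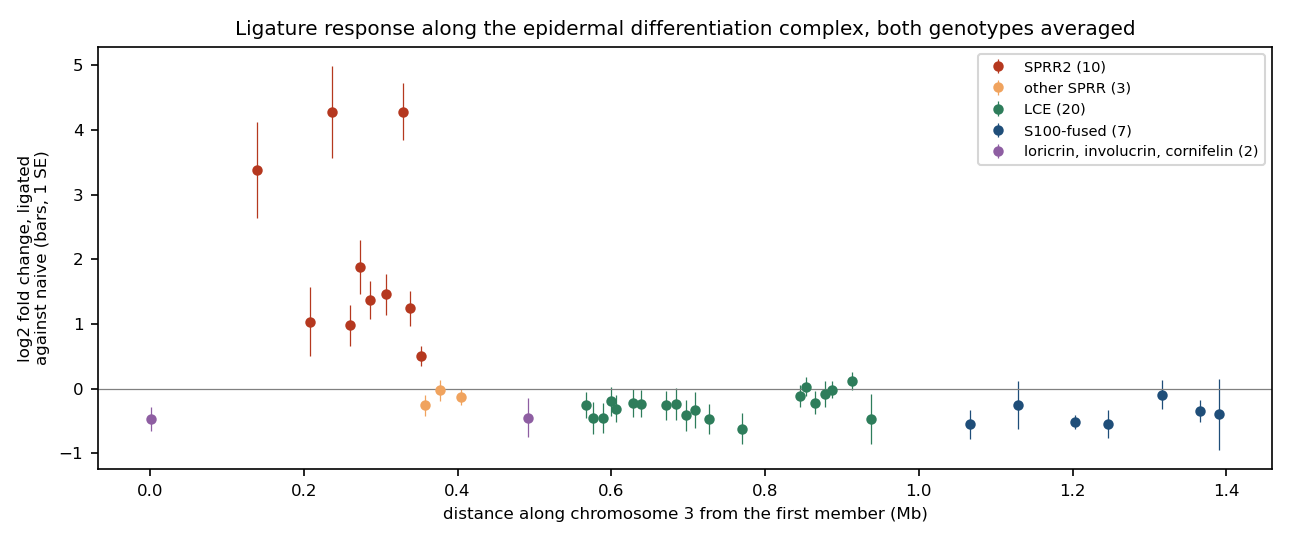
log2 fold change of the 42 tested chromosome 3 members (ligated against naive, both genotypes averaged, bars 1 SE) by distance in Mb from the first member. The SPRR2 members between 0.136 and 0.354 Mb are all above 0, and the neighbouring SPRR1, SPRR3, LCE and S100-fused members lie between -0.62 and 0.12.

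Lor, the main protein of the envelope in skin, gave 1542, 1234 and 1676 CPM in WT naive, 1688, 1481 and 1841 in CybbKO naive, 1082, 768 and 1522 in WT ligated and 968, 1592 and 922 in CybbKO ligated libraries. The third WT and the second CybbKO ligated library lay inside the naive range and the other 4 below it (log2 fold change -0.46 ± 0.19 SE, edgeR adjusted p = 0.0921, DESeq2 adjusted p = 0.0411). Cnfn, a small protein of the envelope, gave 229, 435 and 370 CPM in WT naive, 469, 214 and 442 in CybbKO naive, 303, 211 and 180 in WT ligated and 226, 350 and 192 in CybbKO ligated libraries. Naive and ligated groups overlapped in both genotypes (-0.56 ± 0.24, adjusted p = 0.109). Ivl, the early scaffold protein, was -0.45 with an adjusted p of 0.314.

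Flg was the S100-fused member that was called. It measured 121, 117 and 84.95 CPM in WT naive and 128, 105 and 86.9 in CybbKO naive libraries, and 71.7, 73 and 70.7 in WT ligated and 71.02, 87.4 and 76.8 in CybbKO ligated libraries. The WT groups did not overlap, and in CybbKO 1 ligated library reached just above the lowest naive one. Flg gave a log2 fold change of -0.51 ± 0.12 (SE, adjusted p = 0.00816), which was -0.14 and not called with epithelial scaling (adjusted p = 0.578). Hrnr, a filaggrin relative, and Crnn, a squamous oral and oesophageal protein, gave -0.55 each (edgeR adjusted p = 0.0815 and 0.0954, DESeq2 adjusted p = 0.0323 and 0.0406). Rptn, Tchh, Flg2 and Tchhl1 gave -0.09, -0.34, -0.25 and -0.39 and did not pass, and Flg2, Rptn, Tchh and Tchhl1 were positive with epithelial scaling.

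Casp14 was the member that fell with the clearest margin. Its levels were 64.2, 50.6 and 39.8 CPM in WT naive and 54.1, 54.6 and 42.4 in CybbKO naive libraries. They were 32.7, 29.4 and 28.3 CPM in WT ligated and 34.1, 34.2 and 39.4 in CybbKO ligated libraries. All 6 ligated libraries lay below all 6 naive ones, which 4.31% of tested genes did, although only just, since the highest ligated value was 39.4 and the lowest naive one 39.8. The log2 fold change was -0.63 ± 0.12 (SE, adjusted p = 0.00362, exact permutation p = 0.005, the smallest it can give). It was -0.27 with epithelial scaling and then not called (adjusted p = 0.395). Among the transglutaminases, Tgm3 was counted at 3685, 4517 and 2726 CPM in WT naive, 4091, 3919 and 3555 in CybbKO naive, 3128, 2232 and 1418 in WT ligated and 2321, 3550 and 2383 in CybbKO ligated libraries. Its log2 fold change of -0.59 ± 0.20 (SE) narrowly missed the threshold (edgeR adjusted p = 0.0508, DESeq2 adjusted p = 0.012). Tgm1, the membrane-bound enzyme that anchors the envelope, gave -0.26 (adjusted p = 0.201, and 0.17 with epithelial scaling), and Tgm5 gave 0.01 (adjusted p = 0.954).

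Within a genotype each comparison rests on 3 libraries against 3. In WT, 2 members were called, Sprr2i higher and Casp14 lower (-0.78, adjusted p = 0.0362), where 3.2% of all tested genes were called, 2.31% higher and 0.884% lower. The WT call of Casp14 was lost in 7 of the 12 fits that left out a library, with library size or epithelial scaling and in the fit of only the WT libraries, and that of Sprr2i in 1 of the 12. In libraries labelled CybbKO, 5 members were called, all higher, where 13% of tested genes were called, 9.95% higher and 3.04% lower: Sprr2a1, Sprr2b, Sprr2f, Sprr2h and Sprr2i. The calls of Sprr2b and Sprr2i held in all 12 fits that left out a library, that of Sprr2h in 7 and that of Sprr2f in 4. That of Sprr2a1 also held in all 12, but this is a description, because the gene passed the filter on low counts through its ligated libraries alone. All 10 tested SPRR2 members had positive log2 fold changes in each genotype, with medians of 1.31 in WT and 1.79 in CybbKO libraries, where 46.7% and 46.2% of all tested genes were positive. The CybbKO median was 1.11 without CybbKO ligated replicate 3, the library in which all 10 were highest.

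**Figure D4:**
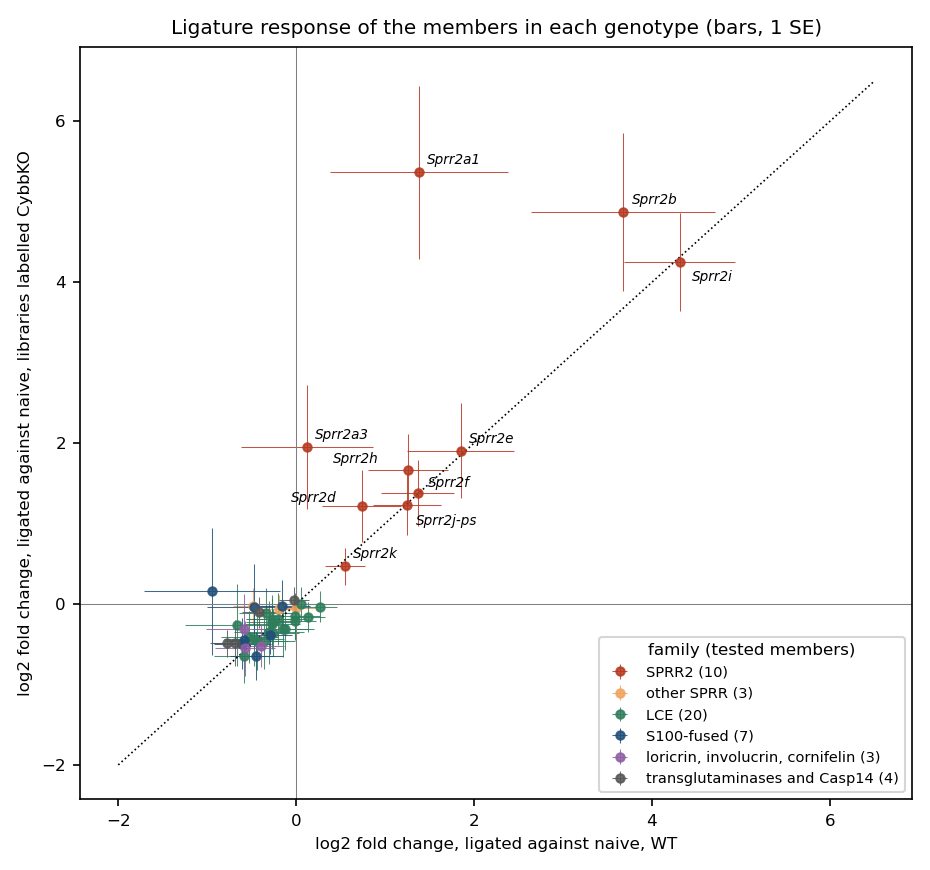
log2 fold change of each tested member, ligated against naive, in WT (horizontal) and in libraries labelled CybbKO (vertical), with bars of 1 SE and the dotted line of equal change. The SPRR2 members extend to the upper right, Sprr2a1 lies farthest from the line, and members of the other families cluster near or below 0.

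The genotype comparisons called no member. In naive gingiva 0 of 47 members were called by edgeR or DESeq2 (background 0.00665% and 0.0133%) and 0 had an unadjusted p under 0.05 in edgeR (background 2.03%). In ligated gingiva 0 members were called by edgeR or DESeq2 (background 0.00665% and 0.0931%), and 3 had an unadjusted p under 0.05 in edgeR's test (background 3.34%). These were Sprr2b (log2 difference 3.03), Sprr2a1 (2.36) and Lce1m (1.40), all higher in the CybbKO libraries and each with an adjusted p of 0.9999. The Sprr2b values of the ligated libraries overlap between the genotypes. Of the 47 members, 41 were higher in CybbKO ligated than in WT ligated libraries on the log2 scale (53.4% of all tested genes were), among them 13 of 13 SPRR, 16 of 20 LCE and 6 of 7 S100-fused members and all 4 transglutaminases and Casp14. In naive gingiva 33 of the 47 were also higher in CybbKO libraries (50.5% of all tested genes were), among them 17 of 20 LCE members. Among the ligated libraries, CybbKO replicates 2 and 3 were highest for 25 and 13 members and CybbKO replicate 1 for 0. The 10 tested SPRR2 members had a median difference of 0.85 that was 0.25 without CybbKO ligated replicate 3. The difference of the ligature response between genotypes called 0 members by either tool (background 0%), and 1 member, Sprr2a1, had an unadjusted p under 0.05 in edgeR's test, where 2.27% of tested genes did, with a log2 difference of 3.99. Sprr2a1 passed the filter on low counts through its ligated libraries alone. This value and its ligated difference of 2.36 are therefore a description. That CybbKO ligated SPRR2 levels spread widely is visible in their sums, which were 746, 491 and 1453 CPM against 297, 470 and 731 in WT ligated, 300, 159 and 282 in WT naive and 352, 221 and 324 in CybbKO naive libraries.

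Markers of other cells moved with the ligature beside the SPRR2 genes. All 10 neutrophil markers were called higher (S100a8, S100a9, Cxcr2, Csf3r, Ly6g, Mmp8, Mmp9, Retnlg, Camp and Ngp). Their sum was 371 to 843 CPM in WT naive, 819 to 924 in CybbKO naive, 1341 to 3770 in WT ligated and 2497 to 11640 in CybbKO ligated libraries, and none was at 0 in every library. The highest sum was that of CybbKO ligated replicate 3, which also had the highest SPRR2 sum, and S100a8 and S100a9, which made up most of it, are also made by inflamed keratinocytes. Of 6 fibroblast markers 5 were called higher, and their sum was 1390 to 2917 CPM in naive and 3866 to 10390 in ligated libraries. The 6 tested markers of other leukocytes were all called higher (median 1.24), as were 3 of 5 bone and tooth markers (median 1.17) and 1 of 7 skeletal muscle markers (median 0.35). The gingival keratinocyte markers summed to 84660 to 123600 CPM in naive and 59480 to 106700 in ligated libraries, with 3 of 8 called lower. WT naive replicate 3 stood apart by its salivary markers (29250 CPM, mostly Muc5b, against 63 to 5067 elsewhere), and of the 6 salivary and mucous markers 1 was called higher and 1 lower (median -0.44). Without this library 12 members were called, 8 higher and 4 lower. The part of cell composition in the member results was not tested. The epithelial scaling is no such test, since 3 of its 12 reference genes were themselves called lower with the ligature.

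**Figure D5:**
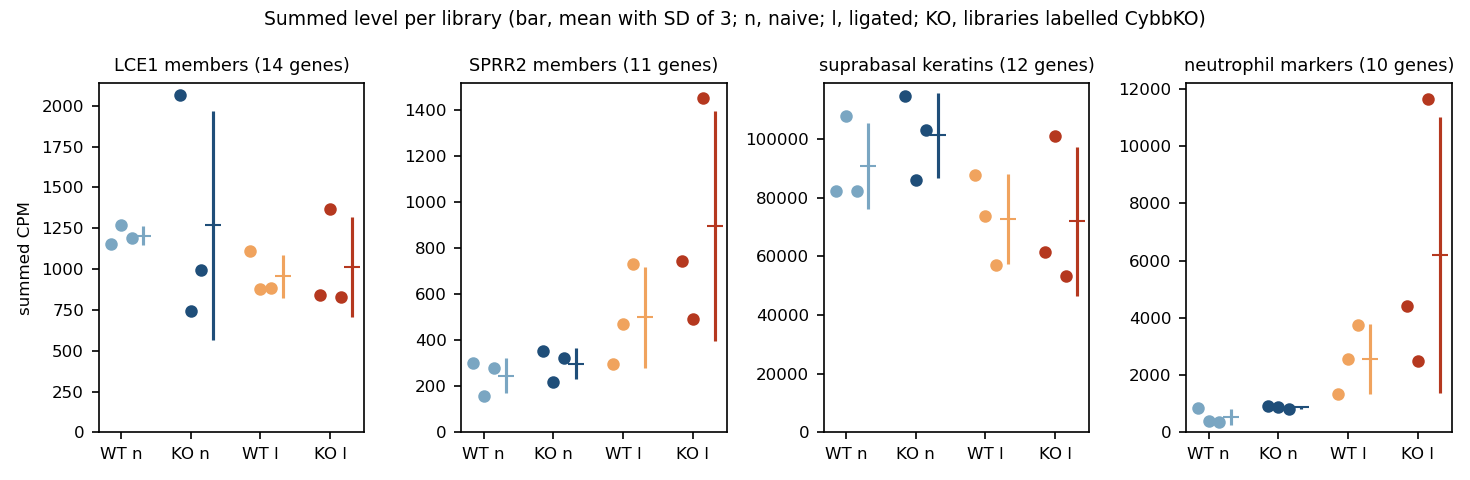
Summed CPM per library of the 14 LCE1 members, the 11 SPRR2 members, 12 suprabasal keratins and 10 neutrophil markers, by group, with the mean and SD of 3 libraries beside the points. CybbKO naive replicate 1 has the highest LCE1 sum (2065) and CybbKO ligated replicate 3 the highest SPRR2 (1453) and neutrophil (11640) sums.

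Genes that act beside the members in cornification were called in both directions with the ligature, and these counts stand beside 14.7% higher and 9.66% lower over all tested genes, near which several of the lists lie. Most of the falls depended on the scaling. With epithelial scaling the lists that follow gave 0 lower calls for the other envelope genes, 2 for the suprabasal keratins, 0 for the barrier lipid genes, 1 for the desquamation genes, 1 for the regulators and 0 for the wound and alarm genes, of which 9 were then called higher. Of 24 other envelope and corneodesmosome genes, 0 rose and 4 fell: Sbsn (suprabasin, -0.72), Lypd5 (-0.56), Calm4 (-0.49) and S100a14 (-0.39), while the abundant desmosomal genes Dsp (-0.20) and Pkp1 (-0.21) did not pass. Of 11 tested suprabasal keratins, 0 rose and 5 fell: Krt10 (-1.70), Krt1 (-1.25), Krt77 (-1.10), Krt80 (-0.85) and Krt76 (-0.72). Krt10 and Krt1 pair in the spinous layer of keratinized epithelium, and Krt76 marks palate and gingiva. Krt13, the keratin of non-keratinized oral mucosa, was -0.15 and did not pass. Among 23 barrier lipid genes 1 rose, the sphingolipid desaturase Degs2 (1.21), and 2 fell, the sphingomyelinase Smpd1 (-0.50) and the fatty acid elongase Elovl1 (-0.43).

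Of 25 desquamation and filaggrin-processing genes 4 rose and 4 fell. Those with the largest changes were the proteases Tmprss11e (1.30), Klk5 (-1.05) and Klk6 (-0.94), the protease inhibitor Spink12 (1.27) and the deiminase Padi4 (1.21), which is known mainly from neutrophils. Of 39 regulators of keratinocyte differentiation 8 fell and fewer rose, Fosl2 (0.50) among the latter. Those that fell had Dlx3 (-0.89), Kdf1 (-0.56), Nfe2l2 (-0.55), Cebpa (-0.54) and Tfap2c (-0.53) as their largest changes. Pou2f3, an octamer-binding factor of suprabasal keratinocytes, was -0.49 and did not pass (adjusted p = 0.0511). Of 20 wound and alarm genes 5 rose and 1 fell. The cytokine genes Il19 (3.99) and Il24 (3.45), the defensin Defb3 (1.82), the chemokine Ccl20 (1.23) and the wound keratin Krt6b (0.43) rose, while Krt17 (-0.72) fell and Krt6a (-0.17) did not pass.

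The 11 other annotated genes between the first and the last chromosome 3 member gave the local background. Of the 8 tested, 0 rose and 2 fell, 2310050C09Rik (-1.22, adjusted p = 0.0021) and 2310046K23Rik (-0.68, adjusted p = 0.0032). Crct1, a cysteine-rich gene next to the LCE genes, gave 0.15 and was not called. Between the first and the last chromosome 3 member, the tested genes that were called higher with the ligature all lay in the SPRR2 stretch of 0.218 Mb.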

How the data were processed

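The deposited count table holds whole-number read counts per gene and library, made by the authors from stranded poly(A) libraries of 3 mice per group aligned to GRCm38 (mm10). The submitters' processing notes name HTSeq 0.10.0 and FastQC 0.10.1 and the study's methods name another counter, so the counting tool is not settled. How reads that fit several paralogs were counted is not given in the sources used here. Symbols came from GENCODE M21, which matched 21939 of the 21965 identifiers and left 26 unmatched. Sprr2c-ps and Sprr2g were not analysed here.

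Counts were fitted over all 12 libraries with edgeR 4.0.16 (R 4.3.3): TMM scaling, filterByExpr by group, the quasi-likelihood test with 1 mean per group and Benjamini-Hochberg adjustment at 0.05 over the 15046 genes kept. The biological coefficient of variation was 0.24. Every adjusted p is edgeR's unless DESeq2 (1.42.0) is named. The exact two-sided permutation test used the mean of log2(CPM + 1) and cannot go below 0.1 for 3 against 3, or 0.005 when labels were permuted within genotype. Depth, between 27958819 and 42613423 counts, limits the genes with few counts. Counting intervals cover counting error only. Levels between genes are CPM per kb of annotated exon. Scripts were tested on simulated data.

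The alternatives were DESeq2, other scalings (DESeq2 size factors, library size, 12 epithelial genes), other filters, a robust fit, a fit of the compared libraries, a replicate block and each library left out. Values in every library are given for members called in any comparison and, in a family with none, for the 2 of highest level. Other lists are given by counts, their 5 largest called changes and their 2 most abundant genes; 1 regulator that was called is not reported here. Members that the DESeq2 test alone called, Sprr3, Sprr2a3, Tgm3 and Lce1l were added after their values were seen. The members and lists were chosen with earlier results of these data known. Promoters came from RefSeq on GRCm38.p6.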

Additional observations from a re-analysis of the deposited data

How the results depend on the processing

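The averaged ligature comparison called 9 to 16 members in every alternative, and all 9 called SPRR2 members stayed called under each of the 4 scalings. The 9 include Sprr2a1, which passed the filter on low counts through its ligated libraries alone and lends no support here. It called 10 members (7 higher and 3 lower) without CybbKO ligated replicate 3, 9 (7 and 2) without CybbKO naive replicate 1 and 12 (8 and 4) without WT naive replicate 3. The genotype comparisons and the difference of the response called 0 members in every alternative.

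The WT comparison, with 2 members, gave 8 with DESeq2 and 1 with library size scaling, epithelial scaling, the replicate block and the fit of only the compared libraries. It ranged from 0, without WT naive replicate 2, to 7, without CybbKO ligated replicate 2. The CybbKO comparison, with 5 members, gave 9 with DESeq2, 8 with epithelial scaling and 3 with at least 10 counts required in every library, and 3 to 8 with 1 library left out. The cause of these moves was not tested, except that a library left out leaves fewer samples.

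Of the 47 members, 33 were positive with epithelial scaling and 17 with library size scaling, against 13 as reported. The median of all tested genes was 0.352 and 0.065 with these scalings, against -0.031 as reported. Among the members outside the LCE family, epithelial scaling reversed the sign of Flg2 (0.018), Rptn (0.29), Tchh (0.061), Tchhl1 (0.068), Sprr1a (0.275), Sprr1b (0.19), Sprr3 (0.334) and Tgm1 (0.167), and library size scaling that of Rptn (0.01) and Sprr3 (0.068), none of them called, and the remaining reversals were in LCE genes. With 1 library left out, sign changes were seen for Lce3b (-0.064 to 0.168), Rptn (-0.239 to 0.048), Tchhl1 (-0.634 to 0.284), Sprr3 (-0.143 to 0.087) and Tgm5 (-0.048 to 0.089).

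Replicate numbers did not pair the libraries. Deviations from group means of same-numbered libraries correlated between -0.34 and 0.331, with 3 of 18 pairs over 0.1, against 15 of 36 pairs of different numbers. With the number as a block 13 members were called in the averaged comparison (8 higher and 5 lower), 1 in WT and 7 in CybbKO. The block ended the averaged call of Sprr2k (adjusted p = 0.07) and the WT call of Casp14 (adjusted p = 0.0542), and added Crnn, Hrnr and Tgm3 to the averaged calls. Medians of families moved with single libraries and with epithelial scaling. The LCE3 median in the averaged comparison was 0.36 with epithelial scaling against -0.05, the LCE1 difference between naive genotypes was 0.10, and -0.47 without CybbKO naive replicate 1, and the SPRR2 difference of responses was 0.23, and -0.32 without CybbKO ligated replicate 3. Depth limits Sprr2a1, Sprr2a2, Sprr4, Lce6a, Lce1m and Tchhl1.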

Other observations

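The hair and filiform papilla keratins, a set with its own cornification programme on the tongue and in hair, were present at low levels. Of 7 tested, 0 rose and 1 fell, Krt84 (-0.77 on the log2 scale, edgeR adjusted p = 0.0084), and Krt32 gave -0.62. The Krt84 call was lost with epithelial scaling. Among the basal and junction genes of the epithelial reference list 0 of 12 rose and 3 fell, Krt15 (-1.55), Col17a1 (-0.53) and Lad1 (-0.49), of which 1 call was left when the list itself set the scaling, while Cdh1 was counted at 472 to 558 CPM in every library. Il24 was counted at 0.124, 0.602 and 2.75 CPM in WT ligated and at 9.43, 2.54 and 7.85 in CybbKO ligated libraries, and did not differ by the test between the genotypes (adjusted p = 0.9999).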
